A study of Mus musculus with 4 samples.

Results

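The 10 genes described here encode the proximal insulin signalling pathway and its inhibitors, and were taken as every probe set annotated to Insr, Irs1, Irs2, Pik3r1, Akt1, Akt2, Grb10, Grb14, Trib3 or Ptpn1 alone. All 10 were on the array, with 19 probe sets, among 12393 genes with a probe set naming them alone. The first 6 genes form the core pathway and the last 4 the adaptors and inhibitors. Gastrocnemius, the large calf muscle, was taken from MCK-PPARa mice, which carry a transgene for the nuclear receptor PPARα driven in muscle by the muscle creatine kinase promoter, and from non-transgenic littermates (NTG). There were 2 arrays per genotype, each of total RNA, and the sources used here do not give strain, age or sex. The series names 2 mice and 2 replicates of each genotype without tying arrays to animals, so a p-value covers only array-to-array spread, which may be technical.

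Insulin binding switches on the tyrosine kinase of its receptor, which phosphorylates the insulin receptor substrates. These recruit the lipid kinase PI3K through its regulatory subunits, and the lipid it makes brings Akt to the membrane, where it is activated. In skeletal muscle, the main site of insulin-stimulated glucose disposal, Akt activity leads to the movement of the glucose transporter GLUT4 to the surface and to glycogen synthesis. Grb10 and Grb14 are related adaptors that bind the activated receptor and block its kinase, Ptpn1 is a phosphatase that removes the receptor's phosphates, and Trib3 is a pseudokinase that binds Akt.

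The values are the authors' MAS5 signals, in arbitrary units scaled to the same trimmed mean on each array. A change is the mean log2(signal + 64.2) of MCK-PPARa less that of NTG, given with standard error (SE, n = 2 per group) or 95% interval from limma. This scale understates the change of dim probe sets, and signals are compared between groups for a probe set, never between probe sets. The test called a probe set at a Benjamini-Hochberg adjusted p under 0.05 over all 12453 probe sets whose mean signal was at least 455.3. The precision is limited by the number of arrays. The 4 arrays were of muscle by their markers, with each of 6 muscle genes (Ckm, Acta1, Myh4, Mb, Tnnt3 and Actn3) at 65374 or more on every array. Ppara itself read 633 and 2674 in NTG against 7969 and 15226 in MCK-PPARa. This 8.02-fold difference did not pass the test (adjusted p = 0.23 in limma, or 0.00076 with the replicate number as a block). A probe set that did not pass may therefore still differ between the genotypes. Arrays also differed by replicate number: the 5′ control probe set of 18S rRNA had a signal of 2202 (NTG) and 2313 (MCK-PPARa) for replicate 1 but 28.9 and 44.7 for replicate 2. Differences between same-numbered arrays are therefore given beside the main results.

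None of the member probe sets passed the test. Of 19 probe sets 17 were bright enough to be tested, and 0 of them were called, where 0.0321% of all probe sets tested were called. At an unadjusted p under 0.05, 4 of the 17 were higher in MCK-PPARa and 0 were lower, against 2.97% and 2.70% of all probe sets tested. The 4 came from 3 genes, Pik3r1 with 2 probe sets, Grb14 and Trib3. Both MCK-PPARa arrays lay above both NTG arrays in 6 of the 17 and below in 2, against 19.0% and 15.0% of all probe sets tested. For 3 of the 17, belonging to Irs2, Pik3r1 and Trib3, the NTG mean was below 455.3 and the probe set passed the filter through its MCK-PPARa signals, so these counts describe the probe sets tested and are no support for a shift of the pathway. With the replicate number as a block in limma, 2 of the 17 passed, 1 of Pik3r1 and 1 of Grb14, both higher, where 1.27% of all probe sets tested were called higher.

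**Figure D1:**
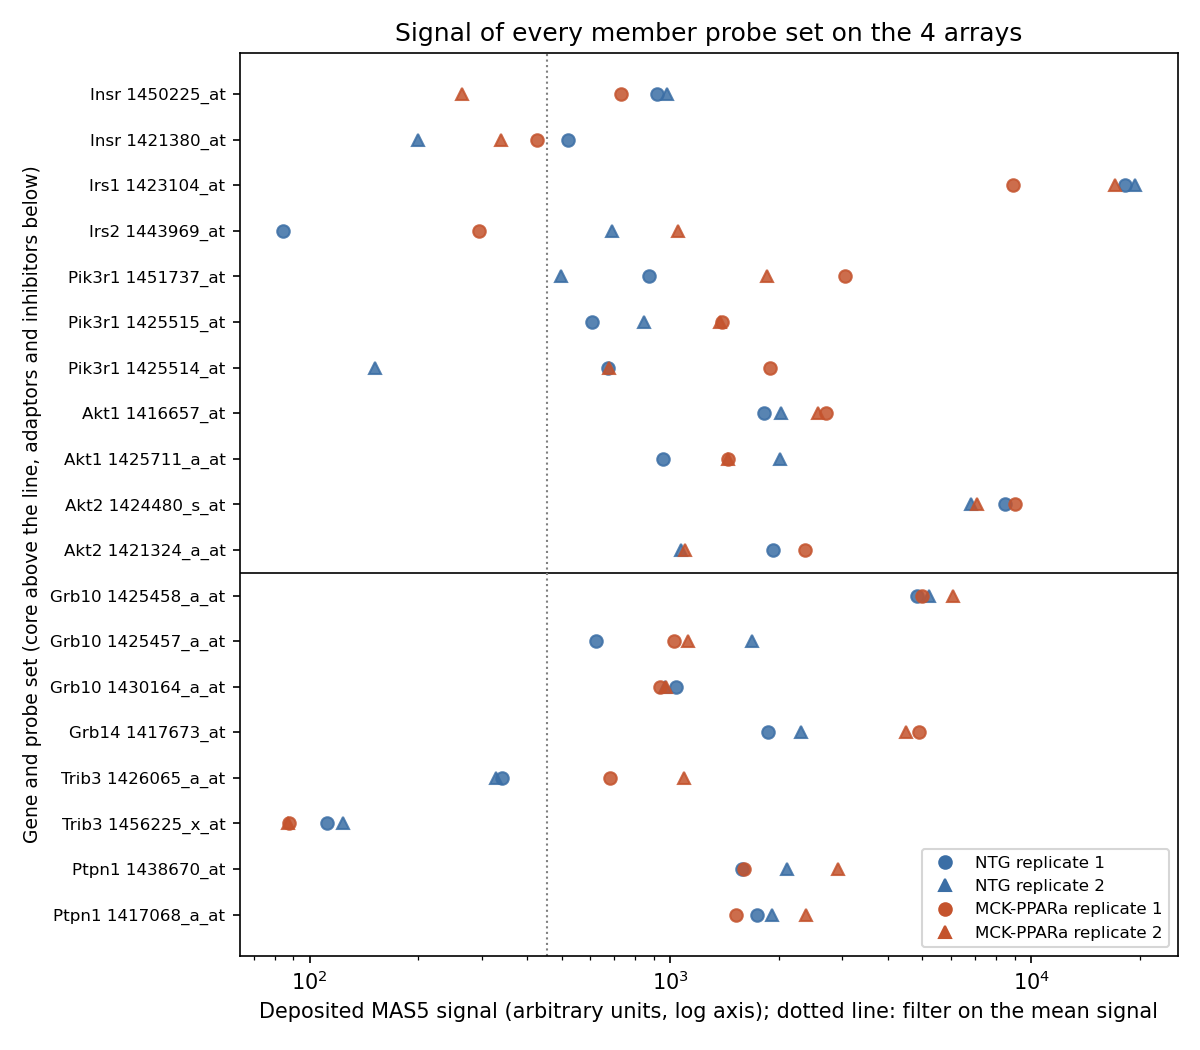
Deposited MAS5 signal (arbitrary units, log axis) of the 19 member probe sets on the 4 arrays, with NTG in blue, MCK-PPARa in orange, circles for replicate 1 and triangles for replicate 2. The dotted line is the filter on the mean signal at 455.3; the Pik3r1 and Grb14 probe sets have both orange points to the right of both blue points, while the Grb10 and Akt2 points are mixed.

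The genes whose probe sets had the smallest p were Pik3r1, Grb14 and Trib3, and the 250 bases before their annotated start sites are printed below. They come from RefSeq on GRCm38.p6, read 5′ to 3′ on the strand of the gene, and Pik3r1 has 2 annotated start sites. Capitals mark matches, on either strand, to the GC box GGGCGG, which binds Sp-family factors and can overlap a neighbouring copy. They also mark the CCAAT box, bound by nuclear factor Y, and the TATA box, searched as TATAAA.
Pik3r1 upstream start site, chr13:101768218-101768467, minus strand: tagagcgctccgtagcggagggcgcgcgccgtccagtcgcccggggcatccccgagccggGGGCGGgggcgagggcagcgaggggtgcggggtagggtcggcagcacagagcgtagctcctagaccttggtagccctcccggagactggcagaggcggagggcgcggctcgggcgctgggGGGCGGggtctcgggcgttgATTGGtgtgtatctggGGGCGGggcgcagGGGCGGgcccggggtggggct
Pik3r1 downstream start site, chr13:101692631-101692880, minus strand: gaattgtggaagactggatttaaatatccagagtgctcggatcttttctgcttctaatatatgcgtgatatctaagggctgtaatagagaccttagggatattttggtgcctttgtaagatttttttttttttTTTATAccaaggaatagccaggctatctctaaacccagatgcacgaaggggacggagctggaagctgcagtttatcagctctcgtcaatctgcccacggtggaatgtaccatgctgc
Grb14, chr2:65022767-65023016, minus strand: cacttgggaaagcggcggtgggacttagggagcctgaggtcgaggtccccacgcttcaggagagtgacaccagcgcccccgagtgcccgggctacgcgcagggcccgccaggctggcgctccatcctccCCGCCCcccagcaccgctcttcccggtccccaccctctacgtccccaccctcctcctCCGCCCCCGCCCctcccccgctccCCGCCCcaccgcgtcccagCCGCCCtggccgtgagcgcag
Trib3, chr2:152344061-152344310, minus strand: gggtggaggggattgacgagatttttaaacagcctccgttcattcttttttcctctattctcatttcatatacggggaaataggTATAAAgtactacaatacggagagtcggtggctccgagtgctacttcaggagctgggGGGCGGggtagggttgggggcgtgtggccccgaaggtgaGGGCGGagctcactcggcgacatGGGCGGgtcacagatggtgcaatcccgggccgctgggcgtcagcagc

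The Grb14 window was 75.2% G and C with 5 GC boxes, and the upstream Pik3r1 window 76.4% with 4. The Trib3 window was 57.2% G and C with 3 GC boxes and a match to TATAAA. The downstream Pik3r1 window was 42.4% with no GC box and a match to TATAAA on the opposite strand. Matches were taken at any distance from the start site, so these do not show a working TATA box. A GC box stood in 9 of the 15 windows of the 9 members in the table and in 32.7% of all 32841 windows, whose median was 52.4% G and C. The PPAR response element, a direct repeat searched on both strands as AGGTCANAGGTCA, was in 0 of the 15 windows and 0.0335% of all windows. Its hexamer AGGTCA alone, which also lies within the direct repeat, stood in 1 of the 15, an Akt1 window, and in 14% of all. The Foxo site GTAAACA stood in 1 of the 15, the same Akt1 window, and in 3.17% of all, and the ATF4 composite site TTGCATCA in 0 and in 0.792%. The CCAAT box stood in 2 of the 15 windows and in 33.9% of all, and the TATA box in 2 and in 12.4%. A missing match says only that these letters are not in this window.

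The insulin receptor gene, Insr, was measured by 2 probe sets that pointed different ways. Probe set 1450225_at read 916 and 978 in NTG against 728 and 265 in MCK-PPARa. Both transgenic arrays lay below both controls, mostly through the replicate 2 array, with a change of -0.98 (95% interval -2.16 to 0.19; limma adjusted p = 0.94), or -0.31 within replicate 1 and -1.66 within replicate 2. Without MCK-PPARa replicate 2 it was -0.35. Probe set 1421380_at, below the filter and given from the fit without one, read 521 and 199.9 in NTG against 427 and 339 in MCK-PPARa, with overlapping groups (0.18, 95% interval -1.16 to 1.51).

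The substrates Irs1 and Irs2, the docking proteins that carry the signal from the receptor to PI3K, had 1 probe set each. Irs1 read 18245 and 19402 in NTG against 8923 and 17097 in MCK-PPARa. The groups did not overlap, but the MCK-PPARa replicate 2 array lay close to the controls while replicate 1 was well below them. Its change was -0.60 (95% interval -1.47 to 0.27; limma adjusted p = 0.98), with -1.03 within replicate 1, -0.18 within replicate 2 and -0.14 without MCK-PPARa replicate 1. Irs2 read 84.2 and 689.7 in NTG against 294 and 1052 in MCK-PPARa. The replicate 2 array was the higher in both genotypes and the groups overlapped, so that the change of 0.92 had a 95% interval from -1.18 to 3.02 (limma adjusted p = 0.98). Without NTG replicate 1, the dimmest array, the Irs2 change was -0.25.

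Pik3r1, which encodes the regulatory subunit that stabilises the PI3K catalytic subunit and docks it on the substrates, had the smallest p of the 10 genes, and its 3 probe sets pointed the same way. Probe set 1451737_at read 875 and 498 in NTG against 3054 and 1853 in MCK-PPARa. Both transgenic arrays lay above both controls, by 1.75 ± 0.40 (SE) or 3.37-fold (95% interval 0.83 to 2.68 on the log2 scale; unadjusted p = 0.0024 and adjusted p = 0.28 in limma). The difference was nearly the same within replicate 1 (1.73) and within replicate 2 (1.77), and the limma adjusted p was 0.0069 with the replicate block. Leaving out single arrays gave changes of 1.38 to 2.12. Those fits leave 1 array in a group, so only their sizes are given. Probe set 1425515_at read 605 and 847 in NTG against 1393 and 1376 in MCK-PPARa (0.89 ± 0.34, limma adjusted p = 0.76). Probe set 1425514_at read 671 and 152 in NTG against 1890 and 676 in MCK-PPARa (1.59 ± 0.70, limma adjusted p = 0.89). In this last probe set MCK-PPARa replicate 2 exceeded NTG replicate 1 only slightly, although the differences between same-numbered arrays were 1.41 and 1.78. The platform annotation gives the same accession for the 3 probe sets, so they are not independent of each other, and it does not say which of the 2 start sites they report on.

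The kinases Akt1 and Akt2, which phosphorylate the downstream targets of the pathway, with Akt2 the form most tied to glucose uptake, differed less. Akt1 probe set 1416657_at read 1822 and 2024 in NTG against 2702 and 2559 in MCK-PPARa. Its groups did not overlap, and its change was 0.44 (95% interval -0.26 to 1.14; limma adjusted p = 0.98). A second Akt1 probe set, 1425711_a_at, read 953 and 2010 in NTG against 1446 and 1447 in MCK-PPARa, so that both transgenic arrays lay between the controls (0.06, 95% interval -0.86 to 0.98). Akt2 probe set 1424480_s_at read 8470 and 6797 in NTG against 9038 and 7091 in MCK-PPARa. Here the replicate 1 array was the higher in both genotypes and the genotypes overlapped (0.08, 95% interval -0.66 to 0.81; limma adjusted p = 0.996, and -0.03 under median centring). The other Akt2 probe set, 1421324_a_at, showed the same order of arrays, with 1929 and 1072 in NTG against 2360 and 1099.5 in MCK-PPARa (0.16, 95% interval -0.88 to 1.20).

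Of the adaptors and inhibitors, Grb14 had the smallest p. Grb14, the adaptor that blocks the catalytic site of the active receptor, read 1869 and 2297 in NTG against 4902 and 4497 in MCK-PPARa. Both transgenic arrays lay well above both controls, with means of 4699 ± 287 and 2083 ± 302 (SD, n = 2 each). The change was 1.16 ± 0.31 (SE) or 2.23-fold (95% interval 0.45 to 1.86; unadjusted p = 0.0056 and adjusted p = 0.41 in limma). It was 1.36 within replicate 1 and 0.95 within replicate 2, and the limma adjusted p was 0.030 with the replicate block. Leaving out single arrays gave changes of 1.01 to 1.30, again given as sizes only.

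Grb10, the related adaptor, was measured by 3 probe sets, each with overlapping groups. The brightest, 1425458_a_at, read 4834 and 5217 in NTG against 4978 and 6077 in MCK-PPARa (0.13, 95% interval -0.57 to 0.83; limma adjusted p = 0.99). Probe set 1425457_a_at read 622 and 1679 in NTG against 1021 and 1116 in MCK-PPARa, a wide spread among controls with both transgenic arrays inside it (0.05, 95% interval -1.03 to 1.13). Probe set 1430164_a_at was nearly level, at 1037 and 964 in NTG against 939 and 974 in MCK-PPARa (-0.06, 95% interval -0.82 to 0.70). The direction of the Grb10 difference thus depended on the probe set, and every interval took in 0.

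Trib3, the pseudokinase that binds Akt and that is induced in starved and stressed cells, had 2 probe sets that disagreed. Probe set 1426065_a_at read 342 and 329 in NTG against 680 and 1094 in MCK-PPARa. Both transgenic arrays were above both controls, with a change of 1.22 ± 0.47 (SE) or 2.33-fold (95% interval 0.13 to 2.31; unadjusted p = 0.033 and adjusted p = 0.77 in limma), or 0.88 within replicate 1 and 1.56 within replicate 2. Since its controls lie below the filter, the size moved with the offset, from 0.86 with 50% of the median to 1.35 with 1%. Probe set 1456225_x_at was below the filter, at 111 and 124 in NTG against 87.7 and 87.1 in MCK-PPARa (-0.26, 95% interval -1.30 to 0.78, from the fit without a filter). Its suffix marks probes that can also match other transcripts.

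Ptpn1, the phosphatase that dephosphorylates the receptor, had overlapping groups on both probe sets. Probe set 1438670_at read 1576 and 2112 in NTG against 1603 and 2910.5 in MCK-PPARa, with the replicate 2 array higher in each genotype (0.24, 95% interval -0.64 to 1.11; limma adjusted p = 0.98). Probe set 1417068_a_at read 1744 and 1908 in NTG against 1522 and 2376 in MCK-PPARa (0.06, 95% interval -0.72 to 0.84). Across all members, 12 of the 19 probe sets had the same replicate number brighter in both genotypes, as did 67.8% of all probe sets tested.

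**Figure D2:**
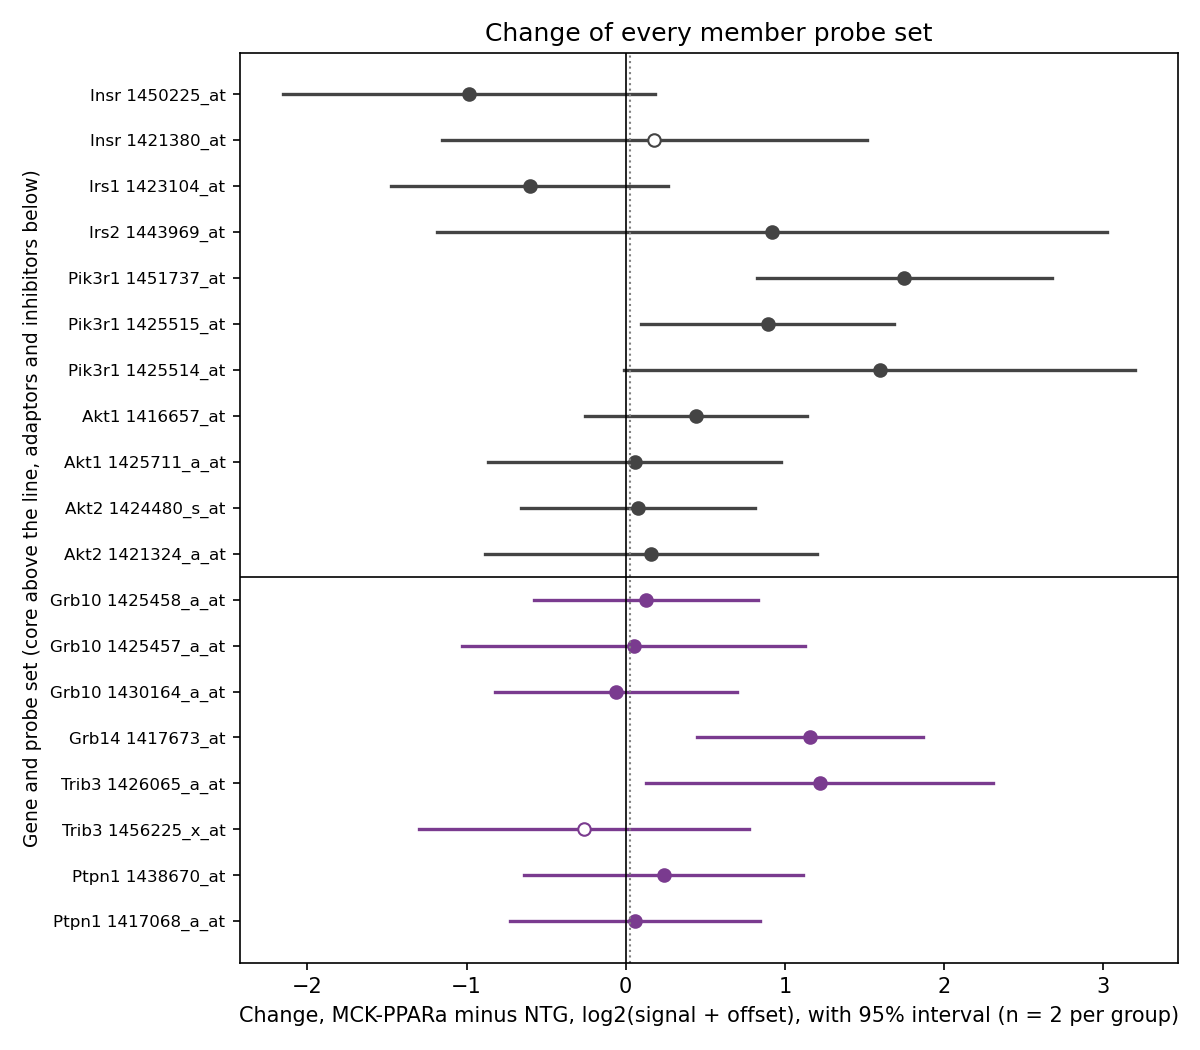
Change of each member probe set, MCK-PPARa minus NTG, on the log2(signal + offset) scale, with the 95% interval from limma (n = 2 per group); core pathway in grey above the line, adaptors and inhibitors in purple below it. Open circles are probe sets below the filter, the dotted line is the median of all probe sets tested (0.03), and the intervals of 2 Pik3r1 probe sets, Grb14 and 1 Trib3 probe set lie above 0.

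Core pathway and inhibitors were then set side by side, with the brightest probe set for each gene. Of the 6 core genes 4 had a change above 0 and 2 below, from -0.98 (Insr) to 1.75 (Pik3r1), with a median of 0.26. All 4 adaptors and inhibitors had a change above 0, from 0.13 (Grb10) to 1.22 (Trib3), with a median of 0.70. The median of all probe sets tested was 0.03. The ranges overlapped, and none of the 10 genes passed in the unblocked fit, so these are descriptions of 2 short lists without a test. Within replicate 1 the core median was 0.32 and the inhibitor median 0.46, and within replicate 2 they were 0.19 and 0.70. The core median was -0.0094 without NTG replicate 1, and the inhibitor median 0.24 under the stricter filter, which leaves out Trib3. That filter also leaves out Insr and Irs2, and the core median over the genes left was 0.26.

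**Figure D3:**
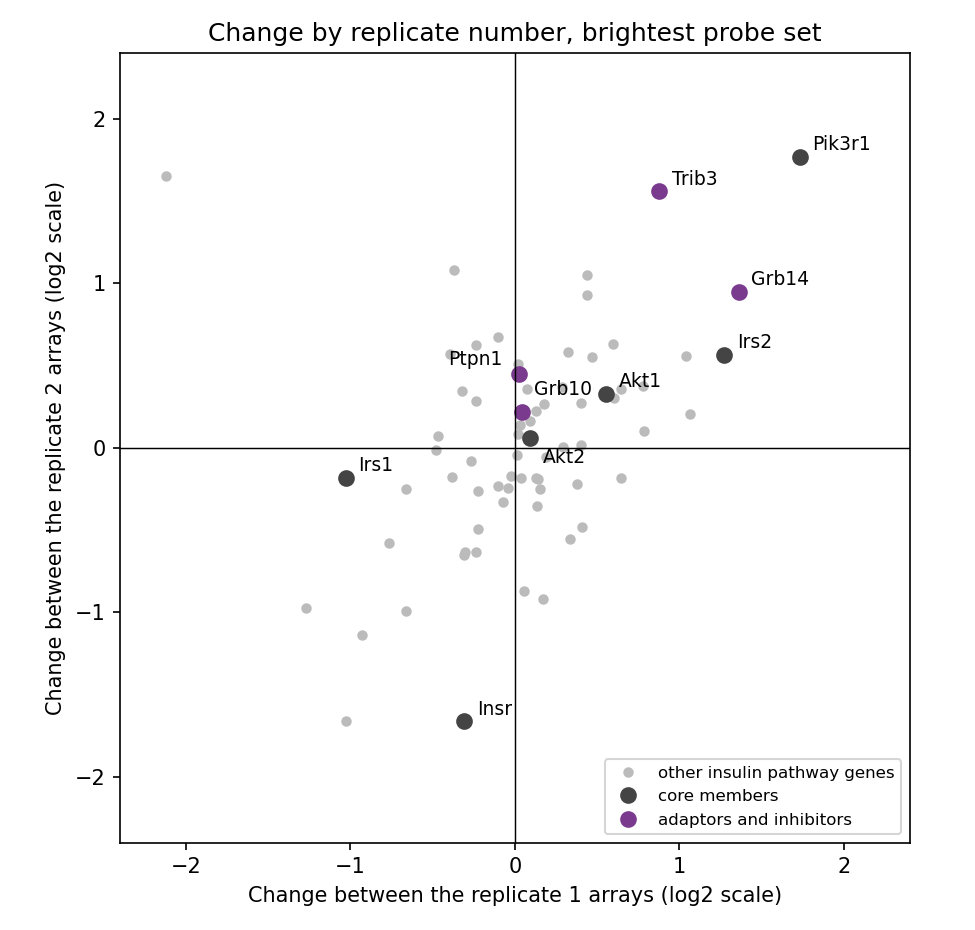
Change between the replicate 1 arrays (x axis) and between the replicate 2 arrays (y axis) on the log2 scale, for the brightest probe set of each member and, in grey, of 61 other insulin pathway genes. Pik3r1, Grb14 and Trib3 lie in the upper right at 0.88 or more on both axes, Insr and Irs1 have both values below 0, and Akt2 and Grb10 lie near the origin.

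Differences between paralogs were compared within arrays, in 3 pairs. Grb14 exceeded Grb10 in change by 1.03 on the log2 scale, by 1.32 within replicate 1 and by 0.73 within replicate 2. The exact two-sided permutation test gave p = 0.33, the smallest that 2 against 2 arrays allow, and 0.50 after Benjamini-Hochberg adjustment over the 3 pairs. Irs2 exceeded Irs1 in change by 1.52 (exact permutation p = 0.33, adjusted 0.50), by 2.30 and 0.75 within the replicate numbers. Akt2 and Akt1 differed in change by -0.36 (exact permutation p = 0.67, adjusted 0.67), Akt1 being the one with the larger change.

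Markers of other cell types were set beside these values, and none of those bright enough to be tested passed the test. Of 7 adipocyte markers 5 were on the array, and Fabp4, Adipoq and Retn were higher on both MCK-PPARa arrays (changes of 1.93, 1.34 and 0.81, limma adjusted p = 0.23, 0.34 and 0.76), while Lep lay between 76.9 and 124.5 on the 4 arrays and Cidec overlapped. With the replicate block Fabp4 (adjusted p = 0.0030) and Adipoq (0.023) passed in limma. The summed signal of the 5 was 6856 to 6893 in NTG against 16991 to 27788 in MCK-PPARa. Such sums are weighted towards the brightest probe sets. Fabp4 alone read 21784 on MCK-PPARa replicate 1, where the sum was 27788, and Col1a1 and Col1a2 made up most of the fibroblast sums below. For 6 endothelial markers the sum was 9968 to 11420 against 14155 to 14652, with 3 of the 6 (Pecam1, Cdh5 and Kdr) higher on both MCK-PPARa arrays and Tek, Emcn and Vwf overlapping. For 7 macrophage markers it was 8408 to 9112 against 10603 to 11495, with 5 of the 7 higher on both. Of these 5, Ptprc and Itgam were below the filter and were not tested. Of all probe sets tested, 19.0% were higher on both MCK-PPARa arrays and 15.0% lower on both. The sums also did not overlap for 6 fibroblast markers (194772 to 229916 against 232353 to 258582), 2 red blood cell markers (2921 to 3389 against 3771 to 4432) and 4 satellite cell markers (3154 to 3228 against 3318 to 3446). By brightest probe set, 1, 1 and 0 markers of these 3 lists were higher on both arrays, and the fibroblast marker Pdgfra was lower on both. The dimmer Pdgfra probe set had overlapping groups (0.29 ± 0.41). Sums overlapped for 4 Schwann cell and 6 smooth muscle markers. The sums for muscle genes were 830038 to 848583 against 831178 to 942820. The part of these cells in the Pik3r1, Grb14 and Trib3 differences was not tested, and in whole muscle a change in cell number and in RNA per cell cannot be told apart.

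The rest of the pathway was described from a list of 78 further genes, of which 63 were on the array under their own name and 61 could be tested. In limma none passed over all probe sets, and at an unadjusted p under 0.05 there were 0 higher and 2 lower, against 2.97% and 2.70% of all probe sets tested. Over all 104 tested probe sets of the list, 4 were higher and 3 lower at that p, so that both counts lay near those background shares. The 4 higher ones were dimmer probe sets of Grb2, Ptpn2, Prkce and Ikbkb, named after their values were seen. With the replicate block 1 of the 104 was called higher (Prkce) and 2 lower (both of Slc2a4), where 1.27% and 1.04% of all probe sets tested were called. The median change was 0.0094, with 31 above 0 and 30 below, close to the 0.03 of all probe sets tested. The 2 lower genes were Slc2a4 and Tbc1d1. Slc2a4, which encodes GLUT4, read 17360 and 17615 in NTG against 7162 and 8919 in MCK-PPARa (-1.12 ± 0.31, limma adjusted p = 0.44, or 0.020 with the block), and its other probe set had a change of -0.90 (limma adjusted p = 0.91, or 0.047 with the block). Tbc1d1, a Rab GTPase-activating protein of muscle that Akt and AMPK phosphorylate and that restrains GLUT4 vesicles, read 1130 and 1829 in NTG against 563 and 796 in MCK-PPARa (-1.03 ± 0.38, limma adjusted p = 0.73). Its other 2 probe sets gave -0.61 and -0.06.

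**Figure D4:**
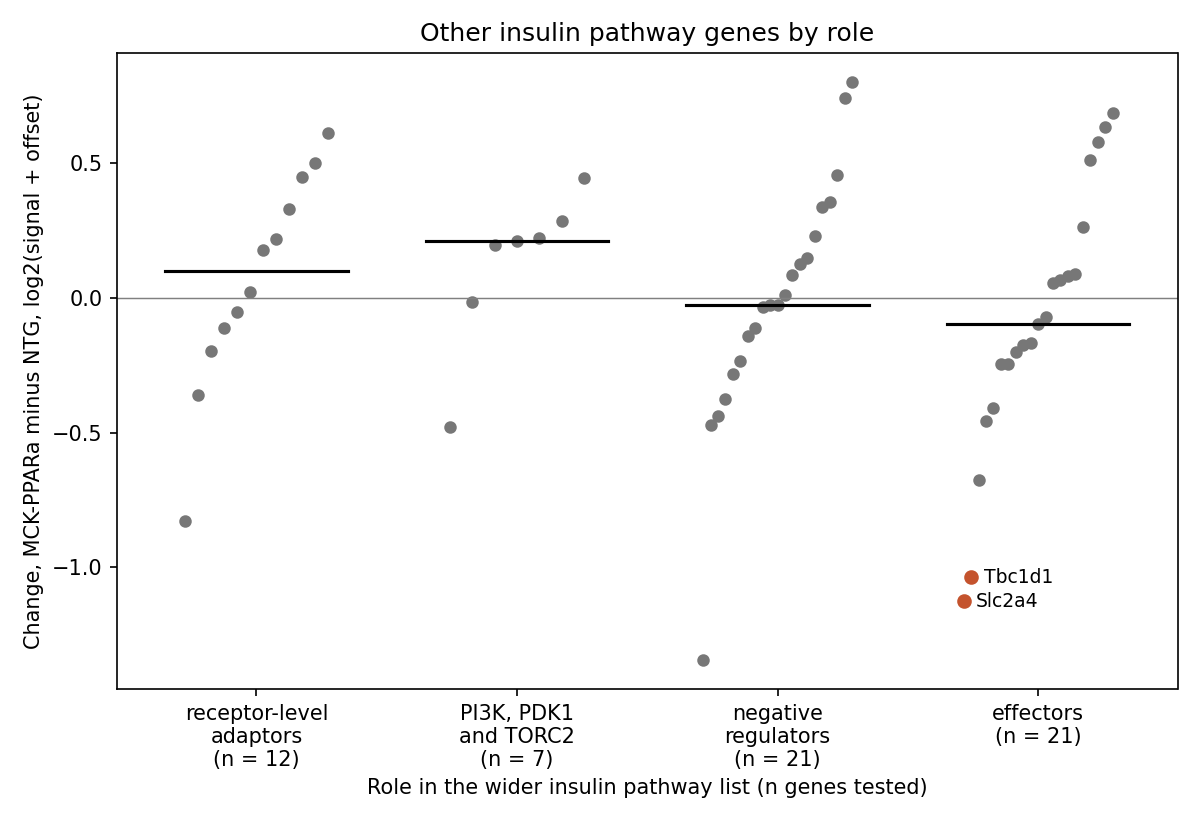
Change, MCK-PPARa minus NTG, on the log2(signal + offset) scale for 61 other insulin pathway genes by role, with the brightest probe set for each gene and a bar at the median of each role. The 2 genes with an unadjusted p under 0.05, Slc2a4 and Tbc1d1, are in orange, and medians lie between -0.10 and 0.21.

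By role, the median was 0.10 for 12 receptor-level adaptors, 0.21 for 7 genes of PI3K, PDK1 and TORC2, -0.03 for 21 negative regulators and -0.10 for 21 effectors. Among adaptors, the SH2 and SH3 protein gene Crk was lower on both MCK-PPARa arrays (-0.83 ± 0.37). So were further Crk probe sets (-0.84 ± 0.32 and -0.78 ± 0.50), while the others gave -0.14 and 0.06 with overlapping groups. The Ras-pathway adaptor Grb2 was higher on both (0.50 ± 0.35; 1.37 ± 0.47 on its dimmer probe set). Pdpk1, the kinase that activates Akt, had a change of -0.48 ± 0.32 (-1.08 ± 0.69 on its dimmer probe set, with overlapping groups). The PI3K catalytic subunit gene Pik3ca, the partner of the Pik3r1 product, had one of 0.22 ± 0.46 with overlapping groups (-0.19 ± 0.35 on its dimmer probe set). By brightest probe set, Pik3r1 thus stood outside the range of the 7 genes next to it, which ran from -0.48 to 0.44, though that difference was not tested.

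Among negative regulators, the protein kinase C gene Prkce was higher on both MCK-PPARa arrays, at 632 and 1298.5 in NTG against 1370.5 and 1945 in MCK-PPARa (0.80 ± 0.41; 1.24 ± 0.34 on its dimmer probe set, limma adjusted p = 0.45, or 0.046 with the block). The receptor phosphatase gene Ptpre had a change of 0.74 ± 0.39 (0.19 ± 0.57 on its dimmer probe set, with overlapping groups). Trib1, of the same family as Trib3, had one of -1.34 ± 0.81 with overlapping groups (0.04 ± 0.52 on its other probe set, below the filter). Among effectors, Rheb, the GTPase that activates mTORC1, was lower on both (-0.67 ± 0.31). Vamp2, a fusion protein of GLUT4 vesicles, was higher on both (0.51 ± 0.31), though its dimmer probe set overlapped (0.34 ± 0.37). Foxo1, the transcription factor that Akt excludes from the nucleus, overlapped (0.58 ± 0.41). Its other probe sets gave 0.31, 0.32 and, below the filter, -1.18. None of these 10 passed the test, with limma adjusted p from 0.89 to 0.99 on their brightest probe set.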

How the data were processed

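Signals were analysed from 4 Affymetrix arrays, 2 MCK-PPARa and 2 NTG. The deposited intensity table holds MAS5 signals, per the submitters' processing notes, for 22690 probe sets; the sources used here give no version, settings or detection calls. Their 2% trimmed means were 1500.6 to 1500.7, so no further normalization was made. Gene symbols came from the platform's annotation, and 20380 of 22626 non-control probe sets had 1 gene symbol.

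Values were taken as log2(signal + 64.2), the offset being 10% of the median. Probe sets below the 40th percentile of mean signal were left out, and 12453 were tested with limma 3.58.1 under R 4.3.3 (lmFit, eBayes with a variance trend, two-sided, Benjamini-Hochberg, threshold 0.05, 7.97 degrees of freedom, 2 of them from the arrays). The fit was tested on simulated data with known changes and independent arrays. These held no effect of replicate number, so they do not show how either fit behaves where there is one. The fit with the replicate block had 10.1 degrees of freedom, with fewer of them from the arrays than in the main fit. Its p-values therefore rest mostly on the variance shared across probe sets. Members below the filter come from a fit without it. All probe sets of a member are given; the brightest stands for a gene in counts. Of the wider list, the 10 genes of smallest p were named, with Slc2a4, Pdpk1, Pik3ca and Foxo1; 1 further gene of that rule is not reported here. The members and lists were chosen with earlier results of these data known.

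Deviations from group means of same-numbered arrays correlated (r = 0.45 across probe sets, which are not independent replicates); the labels do not say what the numbers mark. Alternatives were other offsets, filters and scalings, no trend, 1 probe set per gene, the replicate number as a block, and leaving out each array.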

Additional observations from a re-analysis of the deposited data

How the results depend on the processing

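The count of probe sets past the threshold was 4 in the fit described, 2 with quantile normalization, 1 with median centring, 2 without a variance trend and 287 with the replicate block, and 38 (without NTG replicate 1) to 210 (without MCK-PPARa replicate 1) with an array left out. Fits without an MCK-PPARa array took the variance almost wholly from the trend. With the replicate block, Pik3r1 (1.75) and Grb14 (1.16) passed, and so did 1 gene of the wider list by its brightest probe set (Slc2a4). Leaving out an array gave 1.38 to 2.12 for Pik3r1, and whether a member passed in those fits is not given.

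Signs changed for several members that never passed. Akt2 was -0.025 under median centring, which moved the median of all probe sets from 0.03 to -0.07, and -0.097 to 0.25 with an array left out. Those fits gave -0.25 to 2.09 for Irs2, -0.013 to 0.27 for Grb10 and -0.18 to 0.66 for Ptpn1. Another probe set gave 0.18 for Insr, -0.061 for Grb10 and -0.26 for Trib3. The core median was 0.16 under median centring and -0.0094 to 0.22 with an array left out. The median of adaptors and inhibitors was 0.24 under the stricter filter, which left out Trib3, and 0.44 to 0.87 with an array left out. The stricter filter also left out Insr and Irs2, with a core median of 0.26 over the genes left. The causes were not tested, apart from the genes the filter removed. The other 174 values under the alternatives kept their direction and side of the threshold, or for counts and medians stayed within 1.5 times or the replicate spread. Without detection calls, which dim probe sets were above background is unknown.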
